A study of Mus musculus with 9 samples.

Results

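Clathrin-mediated endocytosis was followed through 10 genes that act from coat assembly to the early endosome: Cltc, Clta, Ap2a1, Ap2m1, Dab2, Dnm1, Dnm2, Sh3gl1, Synj1 and Rab5a. They were chosen by symbol, and all 10 are among the 23309 symbols of the expression table, each on a single row. RNA was measured in podocytes, the kidney cells whose foot processes cover the capillaries of the glomerulus, in 9 libraries. Libraries came from cells taken 14 days after an injection abbreviated ADR in the labels (3 libraries), 9 days after it (3 libraries), and from mice given PBS (3 libraries). All mice were 7 to 8 weeks old, were labelled wildtype and carried the mTmG reporter with a Cre driven by a podocyte gene, so that cells of the podocyte lineage turn green, and total RNA came from GFP-positive cells. Whether the 3 libraries of a group stem from different mice is not stated, so the p-values reflect library-to-library spread. Within each ADR group, libraries with and without Y-linked transcripts occurred (below), so those libraries did not all come from the same mouse.

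In this pathway, clathrin heavy and light chains form a lattice on the inner face of the plasma membrane, adaptors such as the AP-2 complex and Dab2 link it to cargo, dynamin severs the neck of the bud, and endophilin and synaptojanin act at the neck and in shedding the coat. The vesicle then fuses with early endosomes under the control of Rab5. In podocytes, loss of dynamin, synaptojanin 1 or the endophilins in mice is known to disrupt foot processes and cause protein loss in urine.

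Levels are the deposited FPKM, in which fragment numbers are divided by transcript length and by library size. Genes reaching 1 FPKM in 3 or more of the 9 libraries were tested, which kept 9788 genes and 8 of the 10 (all but Clta and Synj1), and a gene passed at an adjusted p under 0.05 by limma. A log2 change was taken from log2(FPKM + 1), so that for low genes it is understated, and has the median change over the genes tested subtracted. That median was −0.15 for day 14 against PBS, −0.22 for day 14 against day 9 and 0.04 for day 9 against PBS. The test itself was of the change before that median was subtracted.

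The podocyte label was met by the markers, with Nphs1 (nephrin) at 30.2 to 99.2 FPKM over the 9 libraries and none of the 10 podocyte markers at 0 in any of them. The 10 podocyte markers were not level between groups: 4 of 10 fell on day 14 against PBS (Plce1 and Ptpro among them, median log2 change over the list −1.07) and 7 of 10 against day 9 (median −1.33), and their part in the results was not tested. Some libraries stood apart. A marker was counted as raised where it was above 4 times the highest PBS library and at 1 FPKM or more. The endothelial, proximal tubule, and distal tubule, loop and duct marker lists (12, 12 and 10 genes) had 12, 11 and 10 such markers in ADR_D14 replicate 1. In ADR_D9 replicate 3 they had 12, 4 and 6. Over the other 7 libraries those lists had at most 2, 3 and 0 such markers. Summed endothelial markers reached 861 FPKM in ADR_D14 replicate 1 and 3309 FPKM in ADR_D9 replicate 3, against 1.24 to 29.0 FPKM in the other 7. Summed proximal tubule markers were at 2889 FPKM in ADR_D14 replicate 1 and at 1.42 to 56.9 FPKM in the other 8, each of which listed the marker Kap at 0. Of 12 leukocyte markers, 8 and 6 were raised by that rule in ADR_D14 replicate 1 and ADR_D9 replicate 3. Summed Y-linked transcripts were at 53.6 to 70.5 FPKM in ADR_D14 replicate 2, ADR_D9 replicate 1 and every PBS library but at most 1.1 FPKM in the other 4. Relative depth, estimated from the steps between low values with PBS replicate 2 set to 1, was 0.239 to 0.569 on day 14, 0.786 to 0.889 on day 9 and 1.0 to 1.085 with PBS.

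Ranked by their mean over the 9 libraries, per length, Ap2m1 was highest at 865 FPKM, followed by Rab5a at 113, Dab2 at 74.7, Dnm2 at 52.7, Sh3gl1 at 35.2, Ap2a1 at 15.6, Cltc at 12.7, Dnm1 at 1.15, Clta at 0.775 and Synj1 at 0.662 FPKM. Only Ap2m1 and Rab5a, and Sh3gl1 and Ap2a1, were neighbours in that order whose ranges over the libraries did not overlap.

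**Figure D1:**
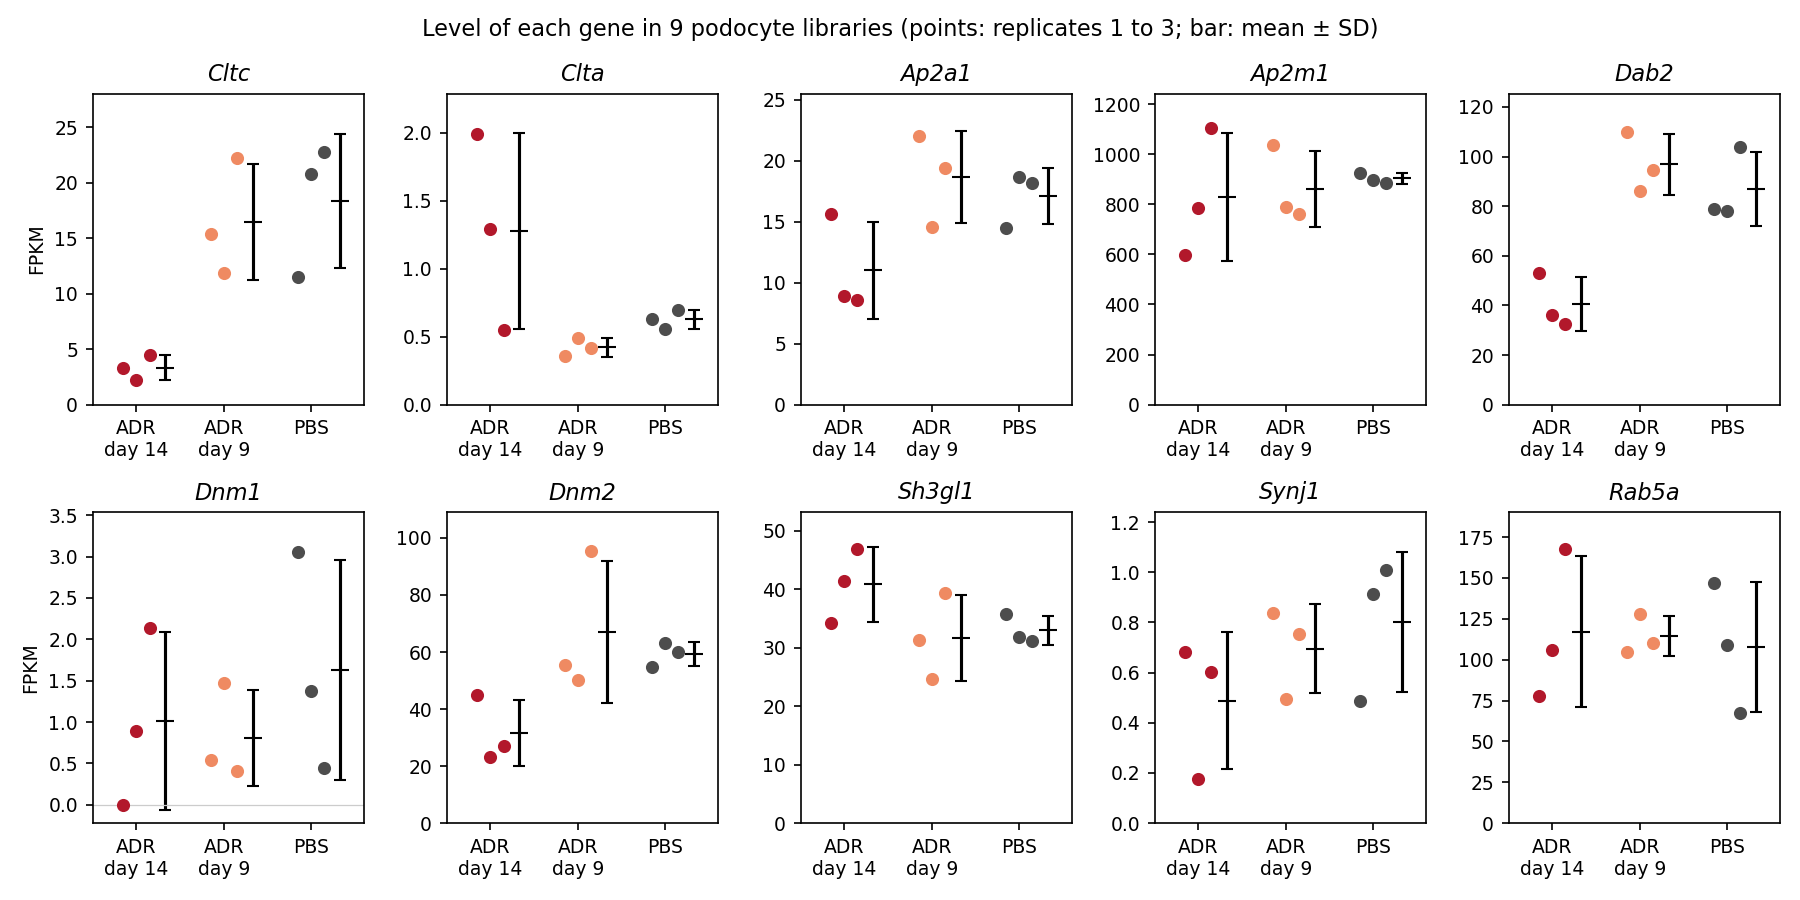
Levels (FPKM, linear axes) of the 10 genes in the libraries of ADR day 14, ADR day 9 and PBS, with a point per library in replicate order and a bar for the mean ± SD (n = 3). Day 14 points lie below all others for Cltc, Dab2 and Dnm2, while the groups overlap for Ap2m1 and Rab5a.

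Of the 8 genes tested, Cltc had the log2 change farthest from 0 on day 14. Cltc, which encodes the clathrin heavy chain, was at 3.33, 2.19 and 4.44 FPKM on day 14, at 15.4, 11.9 and 22.2 FPKM on day 9, and at 11.5, 20.8 and 22.8 FPKM with PBS. All day 14 libraries lay below every library of the other groups, which overlapped each other. Cltc averaged 3.32 ± 1.12 FPKM on day 14 against 18.4 ± 6.05 FPKM with PBS (SD, n = 3 each), so that the PBS mean was 5.53 times the day 14 mean. It fell on day 14 against PBS, with a log2 change of −2.0 ± 0.36 (SE, adjusted p = 0.0111 by limma), and against day 9, with −1.79 ± 0.36 (adjusted p = 0.013 by limma). On day 9 against PBS the change was −0.17 ± 0.36 (adjusted p = 1.0 by limma).

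Over all genes tested, 10.7% fell and 17.1% changed on day 14 against PBS, and 9.98% fell and 15.7% changed on day 14 against day 9. Cltc and Dab2 are the 2 of 8 members that fell in each of these comparisons, and 0 rose. These comparisons share the day 14 libraries. The balance over all genes depended on scaling. Against PBS, 37.1% of the genes that passed were higher as deposited, 19.8% with columns brought to a common total, 52.8% with median-of-ratios factors and 48.5% with quantile normalization. Against day 9 the shares were 36.4%, 17.7%, 56.1% and 55.9%. Cltc and Dab2 passed as lower under each of these scalings. In bulk RNA, fewer cells of a type and less RNA per cell cannot be told apart.

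The light chain gene Clta stood near the low end of the table. It was at 1.99, 1.29 and 0.548 FPKM on day 14, at 0.356, 0.492 and 0.413 FPKM on day 9, and at 0.627, 0.556 and 0.698 FPKM with PBS. Day 14 lay above day 9 in every library and overlapped with PBS, and every day 9 library lay below every PBS library. Such separation was seen in 13.2% of the genes tested for day 14 above day 9 and in 6.63% for day 9 below PBS. With no filter on low values, the log2 change of Clta was 0.44 ± 0.23 on day 14 against PBS (SE, adjusted p = 0.356 by limma) and 0.65 ± 0.23 against day 9 (adjusted p = 0.182 by limma).

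Of the other light chain gene, Cltb, values were 31.1, 58.7 and 48.2 FPKM on day 14, 28.1, 26.1 and 15.7 FPKM on day 9, and 37.2, 27.3 and 26.2 FPKM with PBS. Cltb was named after its values were seen. Its log2 change was 0.71 ± 0.32 against PBS (SE, adjusted p = 0.244 by limma) and 1.16 ± 0.32 against day 9 (adjusted p = 0.0729 by limma). Neither light chain gene passed, and for neither did day 14 lie below PBS as it did for the heavy chain.

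The AP-2 adaptor complex, which binds clathrin, membrane lipid and sorting signals in cargo tails, is built of alpha, beta, mu and sigma subunits. Ap2m1, the mu subunit that reads tyrosine-based signals, was at 596, 785 and 1103 FPKM on day 14, at 1036, 791 and 760 FPKM on day 9, and at 927, 899 and 884 FPKM with PBS. The PBS libraries differed by little (SD 2.37% of their mean), the day 14 libraries by more (30.9%), and the groups overlapped. The log2 change of Ap2m1 was −0.02 ± 0.28 on day 14 against PBS (SE, adjusted p = 0.692 by limma) and 0.13 ± 0.28 against day 9 (adjusted p = 0.848 by limma). The sign of either value turned under other settings, scalings among them.

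Ap2a1, an alpha subunit, was at 15.6, 8.91 and 8.56 FPKM on day 14, at 22, 14.6 and 19.4 FPKM on day 9, and at 14.5, 18.7 and 18.2 FPKM with PBS. Replicate 1 of day 14 lay within the range of PBS and replicates 2 and 3 below it. Its log2 change was −0.49 ± 0.29 against PBS (SE, adjusted p = 0.155 by limma) and −0.52 ± 0.29 against day 9 (adjusted p = 0.108 by limma). Without ADR_D14 replicate 1, the library that held markers of other kidney cells, Ap2a1 passed as lower in both comparisons (−0.72, adjusted p = 0.0378, and −0.77, adjusted p = 0.0261, by limma). It also passed against day 9 with a common column total (−0.57, adjusted p = 0.0436 by limma).

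Of the other AP-2 subunit genes 1 passed. Ap2b1, the beta subunit that binds clathrin, was at 2.23, 2.39 and 1.86 FPKM on day 14, at 4.30, 4.92 and 5.79 FPKM on day 9, and at 4.86, 6.42 and 10.8 FPKM with PBS, and fell on day 14 against PBS (log2 change −1.20 ± 0.30 SE, adjusted p = 0.0218 by limma). Ap2s1, the small sigma subunit, was at 17.1 ± 7.20 FPKM on day 14 and 13.0 ± 0.721 FPKM with PBS (SD, n = 3 each), and Ap2a2, the second alpha subunit gene, at 6.84 ± 4.71 FPKM on day 14 and 8.84 ± 0.804 FPKM with PBS. Neither passed (adjusted p = 0.532 and 0.472 by limma), and these genes were named after their values were seen. In FPKM, Ap2m1 exceeded Ap2a1 in the same library by 38.2 to 129 times on day 14, 39.1 to 54.3 times on day 9 and 48.1 to 64.0 times with PBS.

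Dab2 encodes a clathrin adaptor for cargo receptors, known for its part in megalin uptake in the proximal tubule. It was at 53.1, 36.1 and 32.7 FPKM on day 14, at 110, 86.0 and 94.4 FPKM on day 9, and at 78.7, 78.1 and 104 FPKM with PBS. All day 14 libraries lay below all others, and the day 9 and PBS libraries overlapped. Dab2 fell on day 14 against PBS, with a log2 change of −0.95 ± 0.24 (SE, adjusted p = 0.0224 by limma), and against day 9, with −1.04 ± 0.24 (adjusted p = 0.0156 by limma).

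Highest of the day 14 values of Dab2 was that of ADR_D14 replicate 1, the library with 11 of 12 proximal tubule markers raised. Of the cargo receptor list, megalin (Lrp2) and amnionless (Amn) were at 5.38 and 90.5 FPKM there, against at most 0.188 and 2.64 FPKM in the other 8 libraries. Cubilin (Cubn), of the same list and also a proximal tubule marker, was under 1 FPKM in every library and so not counted as raised. It was at 0.405 FPKM in ADR_D14 replicate 1 and at 0.43 FPKM in ADR_D9 replicate 1, against 0.0289 to 0.0577 FPKM with PBS. With this library and ADR_D9 replicate 3 left out, Dab2 still fell against PBS and against day 9, as did Cltc against PBS and day 9.

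Dynamin is the GTPase that pinches vesicles from the membrane. Dnm2, the form made in most tissues, was at 44.8, 23.3 and 27.0 FPKM on day 14, at 55.4, 50.1 and 95.4 FPKM on day 9, and at 54.9, 63.3 and 59.9 FPKM with PBS. All day 14 libraries lay below all others, and replicate 3 of day 9, the library highest in endothelial markers, was the highest of all. Dnm2 did not pass against PBS (log2 change −0.79 ± 0.32 SE, adjusted p = 0.0747 by limma) or against day 9 (−0.84 ± 0.32, adjusted p = 0.0551 by limma).

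Without ADR_D14 replicate 1, Dnm2 passed as lower in both comparisons (−1.04, adjusted p = 0.0283 against PBS, and −1.10, adjusted p = 0.0211 against day 9, by limma). With ADR_D9 replicate 3 left out as well it also passed, at −1.04 (adjusted p = 0.0138) and −0.86 (adjusted p = 0.0288, by limma). With all 9 libraries Dnm2 passed in both comparisons under a common column total (−0.85, adjusted p = 0.0351 against PBS by limma). Against day 9 it also passed with a filter at 5 FPKM and with a term for Y-linked transcripts (below). With the length and GC trend removed (below) it passed in neither comparison (−0.43, adjusted p = 0.212 against PBS by limma). Separation below PBS, which Cltc, Dab2 and Dnm2 showed on day 14 (3 of 8 tested), was found in 23.8% of all genes tested, and separation below day 9, shown by the same genes, in 24.6%.

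Dnm1, the dynamin of neurons, was low: 0, 0.887 and 2.14 FPKM on day 14, 0.544, 1.47 and 0.412 FPKM on day 9, and 3.06, 1.38 and 0.440 FPKM with PBS. A value listed at 0 can be a failed estimate in a table without counts, and this one came from the library of lowest depth. The groups overlapped, and the log2 change was −0.27 ± 0.49 on day 14 against PBS (SE, adjusted p = 0.584 by limma). Dnm3, the last of the dynamin genes, was not tested, and was at 3.62 FPKM in ADR_D14 replicate 1 and 1.30 FPKM in ADR_D9 replicate 3, against at most 0.124 FPKM in the other 7 libraries. Markers of other kidney cells were raised in both, and their part in these values was not tested. In each of the 9 libraries Dnm2 thus stood well above both of its paralogs, whose shared reads, if any, were assigned in a way not given in the sources used here.

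Sh3gl1 encodes endophilin A2, which bends membrane and recruits dynamin and synaptojanin through its SH3 domain. It was at 34.2, 41.5 and 46.9 FPKM on day 14, at 31.3, 24.6 and 39.3 FPKM on day 9, and at 35.8, 31.9 and 31.2 FPKM with PBS. The groups overlapped, and Sh3gl1 did not pass on day 14 against PBS (log2 change 0.44 ± 0.23 SE, adjusted p = 0.405 by limma) or against day 9 (0.59 ± 0.23, adjusted p = 0.291 by limma). The ratio of Sh3gl1 to Dnm2 in FPKM was 0.763, 1.79 and 1.74 on day 14, 0.564, 0.490 and 0.412 on day 9, and 0.652, 0.504 and 0.521 with PBS, so that every day 14 library had the higher ratio. As the day 14 libraries of Dnm2 already lay below all others, that separation of the ratio is not a further result. The endophilin genes Sh3gl2 and Sh3gl3 were not tested, and Sh3gl2 was above 0.294 FPKM only in ADR_D14 replicate 1 (2.96) and ADR_D9 replicate 3 (5.61).

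Synj1 encodes synaptojanin 1, the phosphoinositide phosphatase that helps release the coat. It was at 0.684, 0.176 and 0.604 FPKM on day 14, at 0.838, 0.495 and 0.754 FPKM on day 9, and at 0.485, 0.913 and 1.01 FPKM with PBS, and the groups overlapped. With no filter on low values its log2 change was −0.28 ± 0.20 on day 14 against PBS (SE, adjusted p = 0.501 by limma). At these levels and at the lower depth of day 14, a change could not be resolved.

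Rab5a, the small GTPase of early endosomes, was at 77.7, 106 and 168 FPKM on day 14, at 105, 128 and 110 FPKM on day 9, and at 147, 109 and 67.3 FPKM with PBS. The groups overlapped, with PBS and day 14 spanning about the same range. Its log2 change was 0.27 ± 0.36 on day 14 against PBS (SE, adjusted p = 0.836 by limma) and 0.19 ± 0.36 against day 9 (adjusted p = 0.963 by limma). The sign of both values turned without some libraries.

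**Figure D2:**
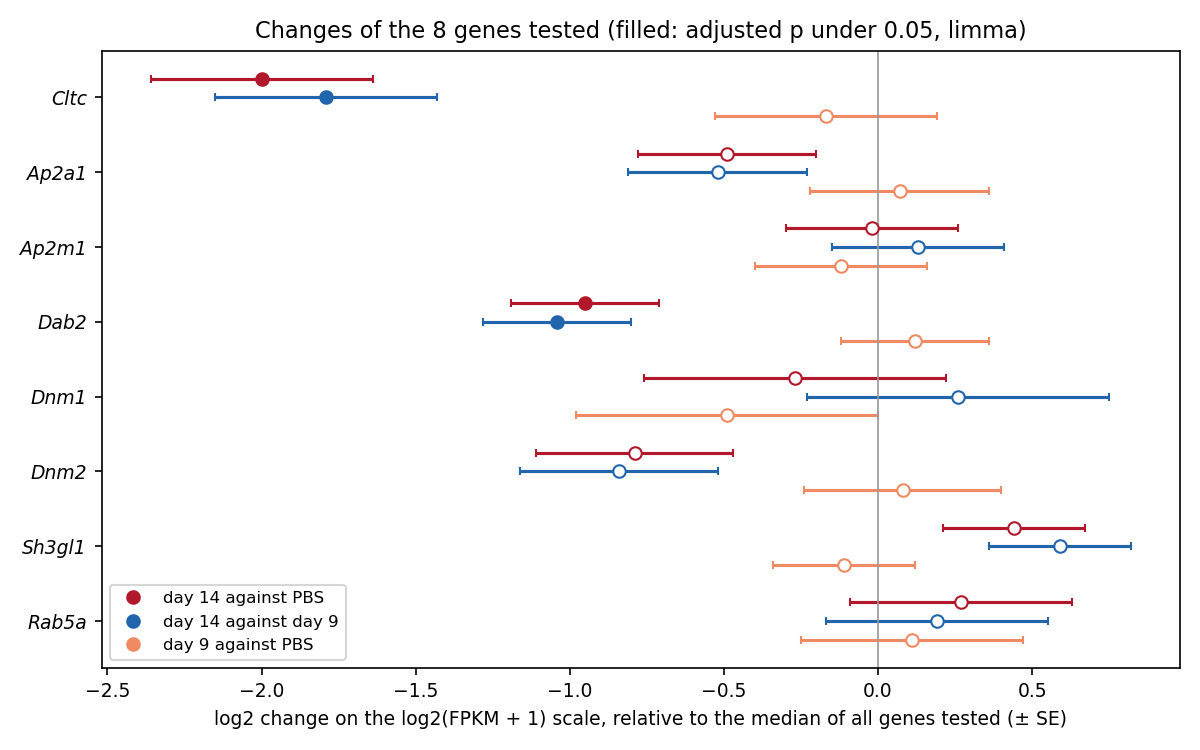
Log2 changes with their SE for the 8 genes tested, on day 14 against PBS, day 14 against day 9 and day 9 against PBS. Filled points passed limma, which only Cltc and Dab2 did, at −2.0 and −0.95 against PBS.

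On day 9 against PBS none of the 8 genes passed, and none of all 9788 genes did either (0% called by limma, 304 genes at an unadjusted p under 0.05). Log2 changes of the 8 ran from −0.49 for Dnm1 to 0.12 for Dab2, and the smallest unadjusted p among them was 0.379. For all 8 the groups overlapped, against 6.77% of all genes with day 9 above PBS and 6.63% with day 9 below it.

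The start regions of the genes that lay lowest on day 14 are shown because all their day 14 libraries lay below all others, although Dnm2 did not pass the test, with Ap2m1, whose groups overlapped, beside them. Each line gives the 250 bases before a RefSeq transcript start in build GRCm38.p6, on the gene's strand and 5′ to 3′. The expression table carries no coordinates, and the submitters' notes name mm9. Capitals mark CCAAT, or ATTGG where it lies on the other strand.
Cltc, chr11:86757568-86757817, minus strand: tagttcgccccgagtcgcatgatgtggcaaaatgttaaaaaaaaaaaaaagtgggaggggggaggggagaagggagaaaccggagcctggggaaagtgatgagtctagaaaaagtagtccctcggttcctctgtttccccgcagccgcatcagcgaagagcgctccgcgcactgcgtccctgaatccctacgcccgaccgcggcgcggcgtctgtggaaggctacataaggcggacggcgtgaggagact
Dab2, upstream start, chr15:6299539-6299788, plus strand: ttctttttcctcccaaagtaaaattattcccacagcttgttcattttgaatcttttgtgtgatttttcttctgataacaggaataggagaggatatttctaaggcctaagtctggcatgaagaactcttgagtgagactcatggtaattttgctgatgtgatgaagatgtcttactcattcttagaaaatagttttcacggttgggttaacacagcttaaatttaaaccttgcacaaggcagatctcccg
Dab2, downstream start, chr15:6386498-6386747, plus strand: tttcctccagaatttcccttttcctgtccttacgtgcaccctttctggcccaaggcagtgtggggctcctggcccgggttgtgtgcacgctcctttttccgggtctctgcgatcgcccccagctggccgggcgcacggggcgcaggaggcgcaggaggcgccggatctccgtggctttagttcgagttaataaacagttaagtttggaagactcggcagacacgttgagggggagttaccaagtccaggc
Dnm2, chr9:21424658-21424907, plus strand: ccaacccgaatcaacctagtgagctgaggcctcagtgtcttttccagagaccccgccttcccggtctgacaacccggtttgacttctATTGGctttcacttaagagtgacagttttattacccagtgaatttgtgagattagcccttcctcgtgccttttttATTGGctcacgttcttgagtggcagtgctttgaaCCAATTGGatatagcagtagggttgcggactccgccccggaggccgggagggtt
Ap2m1, chr16:20535230-20535479, plus strand: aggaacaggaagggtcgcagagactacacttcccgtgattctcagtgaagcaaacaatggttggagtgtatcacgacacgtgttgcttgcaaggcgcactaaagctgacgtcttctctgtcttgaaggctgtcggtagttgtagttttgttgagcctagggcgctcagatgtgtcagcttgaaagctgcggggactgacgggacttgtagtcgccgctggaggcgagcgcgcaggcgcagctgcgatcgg

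Letters searched on both strands were GCGTGGG and GCGGGGG, parts of sites that WT1 and related zinc finger factors are known to bind, and CCAAT, the box bound by NF-Y. All 10 genes had a window, 14 windows in all. GCGTGGG was found in none of the 5 windows shown, in 1 window each of Synj1 and Rab5a, and in 4.3% of 32851 windows of the same length over all genes. GCGGGGG was found in none of the 14 windows and in 9.63% of all. CCAAT occurred in 33.8% of all windows, and among the 10 genes in windows of Clta, Ap2a1, Rab5a and Dnm2. Of the 5 windows shown, only that of Dnm2 held it, with 4 matches, of which 1 on each strand overlap in CCAATTGG, 54 bases before the start. A match is a run of letters and not a site. Which start podocytes use was not measured.

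Other genes of the pathway were read from 5 lists, chosen with earlier results of these data known. Of their 117 symbols, 113 were in the table and 92 were tested. On day 14 against PBS 15 of the 92 fell (16.3%, against 10.7% of all genes tested) and 3 rose (3.26%, against 6.32%), with a median log2 change of −0.35, where the median over all genes is 0 by construction. On day 14 against day 9, 10 fell (10.9%, against 9.98%) and 3 rose (3.26%, against 5.71%), with a median of −0.26. On day 9 against PBS 0 of 92 passed (0% of all genes). The 92 genes had a median length of 4144 bases, against 3178 over all genes tested, and day 14 changes moved with length (below). With each library's trend over length and GC share removed, 8 of the 92 fell and 1 rose on day 14 against PBS. Of all 9732 genes in that fit, 750 fell and 282 rose. Against day 9, 5 of the 92 fell and 1 rose, and of all genes 575 fell and 220 rose.

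**Figure D3:**
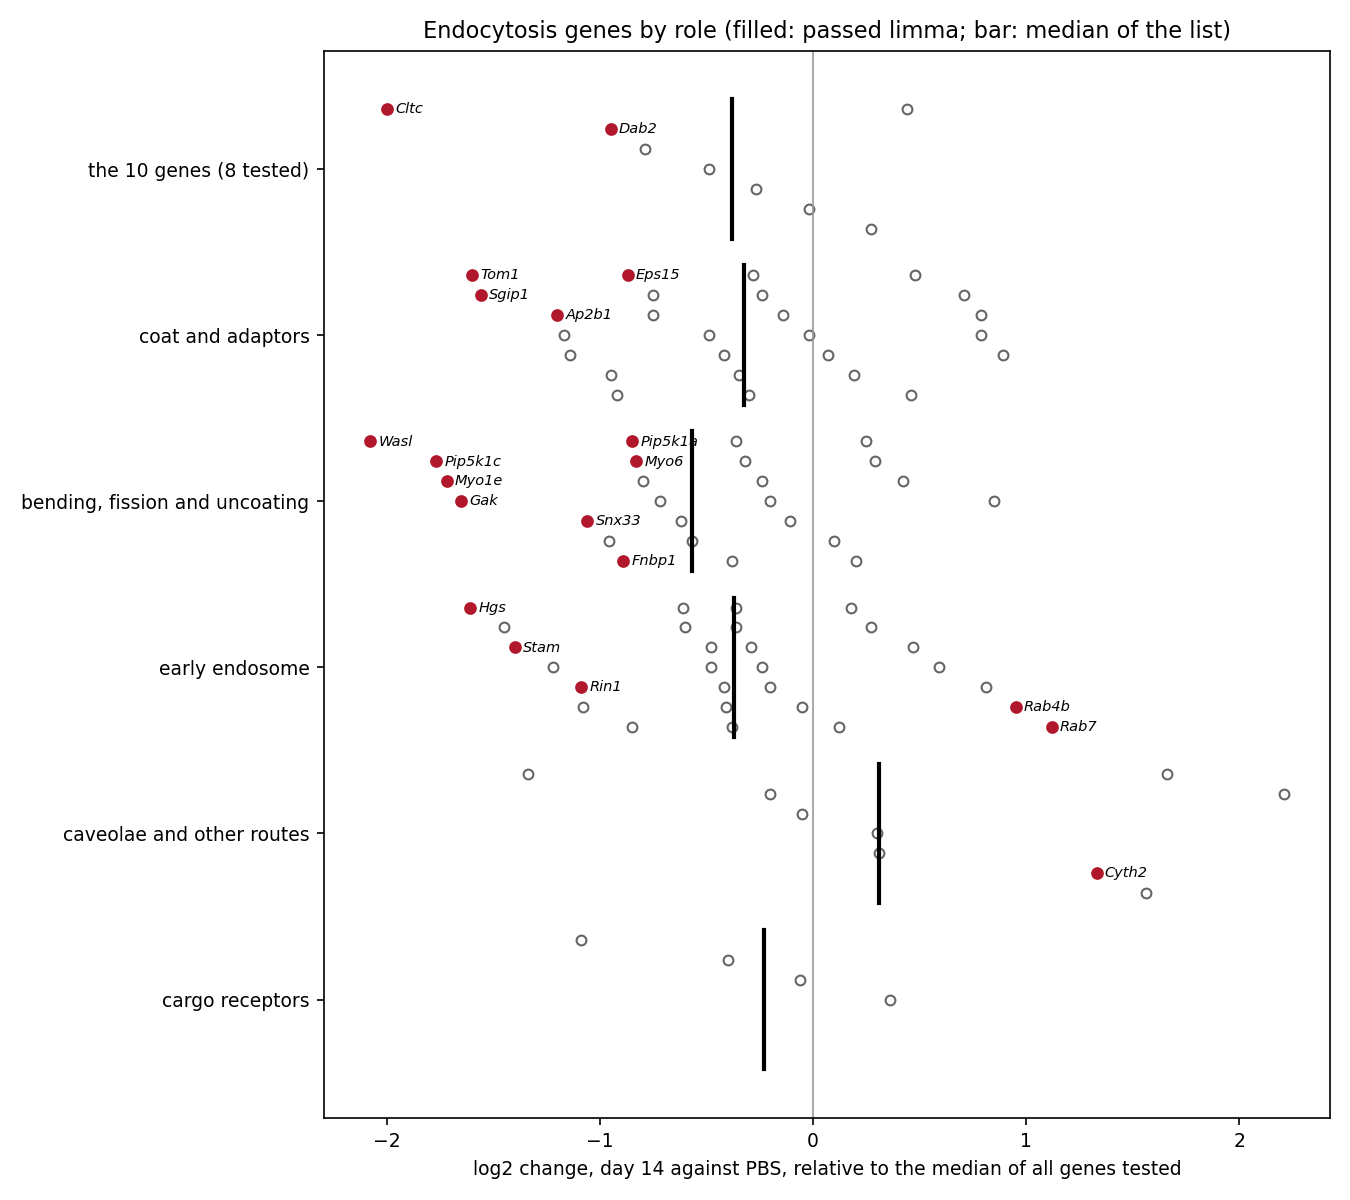
Log2 change on day 14 against PBS for the 8 genes tested (top row) and the tested genes of each pathway list, with filled points for genes that passed limma and a bar at the median of the list. The bending, fission and uncoating list has 8 filled points, all below 0.

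Among genes of the coat and its adaptors, 4 of 26 fell on day 14 against PBS and 0 rose (median −0.32). Beside Ap2b1 these were Tom1, a ubiquitin-binding clathrin partner (−1.60 ± 0.44 SE, adjusted p = 0.0294 by limma), Sgip1, a membrane-binding AP-2 partner (−1.56 ± 0.47, adjusted p = 0.0389), and Eps15, an AP-2 scaffold (−0.87 ± 0.28, adjusted p = 0.0399). Tom1 was at 1.82, 7.08 and 8.34 FPKM on day 14 against 19.2, 18.6 and 19.4 FPKM with PBS, so that its lowest value was in ADR_D14 replicate 1. Against day 9, 3 fell, namely Tom1, Sgip1 and Hip1r, a link of clathrin to actin (−1.62 ± 0.45 SE, adjusted p = 0.0286 by limma). Against PBS, the calls of Eps15 and Sgip1 were each lost in 16 of 23 alternatives, that of Tom1 in 9 and that of Ap2b1 in 6. Against day 9 those of Tom1 and Sgip1 were each lost in 15 of 23 and that of Hip1r in 10.

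Of the genes for membrane bending, fission and uncoating, 8 of 25 fell on day 14 against PBS and 0 rose (median −0.57). Myo1e, a motor known to bind dynamin and synaptojanin and needed for the podocyte filter, was at 29.5, 33.8 and 28.7 FPKM on day 14, at 189, 108 and 103 FPKM on day 9, and at 94.9, 107 and 146 FPKM with PBS (−1.72 ± 0.28 SE, adjusted p = 0.01 by limma). Gak, the kinase that recruits Hsc70 to strip clathrin, was at 4.28, 4.38 and 6.0 FPKM on day 14, at 20.7, 13.6 and 20.9 FPKM on day 9, and at 14.7, 21.1 and 23.1 FPKM with PBS (−1.65 ± 0.28, adjusted p = 0.0102 by limma). For both genes every day 14 library lay below every library of the other groups.

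Wasl, which encodes the actin nucleation factor N-WASP, had a log2 change of −2.08 ± 0.35 (SE, adjusted p = 0.0106 by limma), and Pip5k1a, a kinase that makes the lipid recognised by AP-2, of −0.85 ± 0.20 (adjusted p = 0.0175 by limma). The other genes that fell were Pip5k1c, Myo6, Snx33 and Fnbp1. Against day 9, 6 of these 25 fell, with Myo1e at −1.82 and Gak at −1.49 (adjusted p = 0.00999 and 0.0112 by limma). Myo6, the motor that moves toward the minus end of actin filaments, was at −1.06 and Pip5k1c at −1.84 (adjusted p = 0.014 and 0.0274 by limma). The call of Pip5k1c was lost in 10 of 23 alternatives in either comparison. Against PBS the call of Fnbp1 was lost in 15 of 23, and those of Myo1e and Gak in 2 and 3 of 23. Those of Myo6, Pip5k1a and Wasl were lost in 8, 4 and 2 of 23, and that of Snx33 in 7 of 22. Against day 9 the calls of Snx33 and Wasl were lost in 14 of 22 and 11 of 23.

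In the early endosome list 3 of 28 fell and 2 rose on day 14 against PBS (median −0.37). Hgs, which encodes the ubiquitin-sorting ESCRT-0 subunit Hrs, was at 29.1, 38.4 and 51.2 FPKM on day 14, at 109, 111 and 133 FPKM on day 9, and at 109, 145 and 147 FPKM with PBS. It fell against PBS (−1.61 ± 0.25 SE, adjusted p = 0.00994 by limma) and against day 9 (−1.37 ± 0.25, adjusted p = 0.0112 by limma). Its partner Stam fell against PBS as well (−1.40 ± 0.35, adjusted p = 0.0239 by limma), as did Rin1, a Rab5 activator with low levels (0.253 ± 0.21 FPKM on day 14 against 2.02 ± 0.905 FPKM with PBS, SD, n = 3 each; −1.09 ± 0.28, adjusted p = 0.0232 by limma). Against PBS the call was lost in 8 of 22 alternatives for Rin1, in 4 of 23 for Stam and in 2 of 23 for Hgs.

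Rab7, the GTPase of late endosomes, was at 686, 538 and 784 FPKM on day 14, at 384, 301 and 274 FPKM on day 9, and at 390, 327 and 300 FPKM with PBS. It rose against PBS (1.12 ± 0.24 SE, adjusted p = 0.0293 by limma) and against day 9 (1.28 ± 0.24, adjusted p = 0.0247 by limma). Rab4b, a GTPase of recycling endosomes, also passed, at 2.03 ± 0.598 FPKM on day 14 against 0.72 ± 0.17 FPKM with PBS (SD, n = 3 each; 0.95 ± 0.23 SE, adjusted p = 0.0438 by limma). Against PBS the call was lost in 16 of 22 alternatives for Rab4b and in 10 of 23 for Rab7. The Rab5a paralogs Rab5b and Rab5c did not pass (log2 changes of −1.22 and −0.85, adjusted p = 0.0797 and 0.127 by limma) and were named after their values were seen.

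Of 9 tested genes of caveolae and other routes, 1 rose and 0 fell on day 14 against PBS (median 0.31). This was Cyth2, an activator of Arf GTPases, at 24.0, 15.0 and 18.9 FPKM on day 14 against 10.8, 6.65 and 6.58 FPKM with PBS (1.33 ± 0.28 SE, adjusted p = 0.0264 by limma). The call of Cyth2 against PBS was lost in 4 of 23 alternatives. Cav1 and Cav2, the caveolins, were at 215 and 236 FPKM in ADR_D14 replicate 1 and at 161 and 177 FPKM in ADR_D9 replicate 3, against at most 12.8 and 42.4 FPKM in the other 7 libraries. Those are the libraries with 12 of 12 endothelial markers raised, and the part of those cells was not tested. Of 10 cargo receptor genes 4 were tested and 0 passed. Igf2r, the receptor that carries lysosomal enzymes, had a log2 change of −0.40 ± 0.30 against PBS (SE, adjusted p = 0.238 by limma).

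Among all genes tested, the 5 closest to Dnm2 over the 9 libraries were Fbxw11, Fam115a, Lrpprc, Frmd4b and Usp47. Likeness was the root mean square difference of log2(FPKM + 1) after each gene was centred on its own mean, and ran from 0.12 to 0.15. Fbxw11, the closest, was at 28.6, 16.0 and 16.3 FPKM on day 14, at 40.7, 35.5 and 55.1 FPKM on day 9, and at 34.6, 37.6 and 35.0 FPKM with PBS. The measure favours genes of similar range, and members of the 10 were not among the 5.

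Changes on day 14 moved with transcript length. The median change was 0.78 in the shortest of 20 length bins, −0.37 in the bin of 4228 to 4522 bases and −0.19 in the longest, so that the order did not run through to the longest genes. Over 9732 genes, which share the same libraries, Spearman's rho between longest transcript and change against PBS was −0.331, given as a description. Cltc (6519 bases) had a change of −2.0, where the genes of its length bin had a median of −0.24 and a lower quartile of −0.62. Dab2 (4663 bases) had −0.95 against a median of −0.35 and a lower quartile of −0.85, and Dnm2 (3510 bases) had −0.79 against −0.16 and −0.64. Rab5a (3226 bases) and Sh3gl1 (3093 bases) were above the medians of their bins, and Ap2m1 (2937 bases), at −0.02, was close to its median of 0.02.

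**Figure D4:**
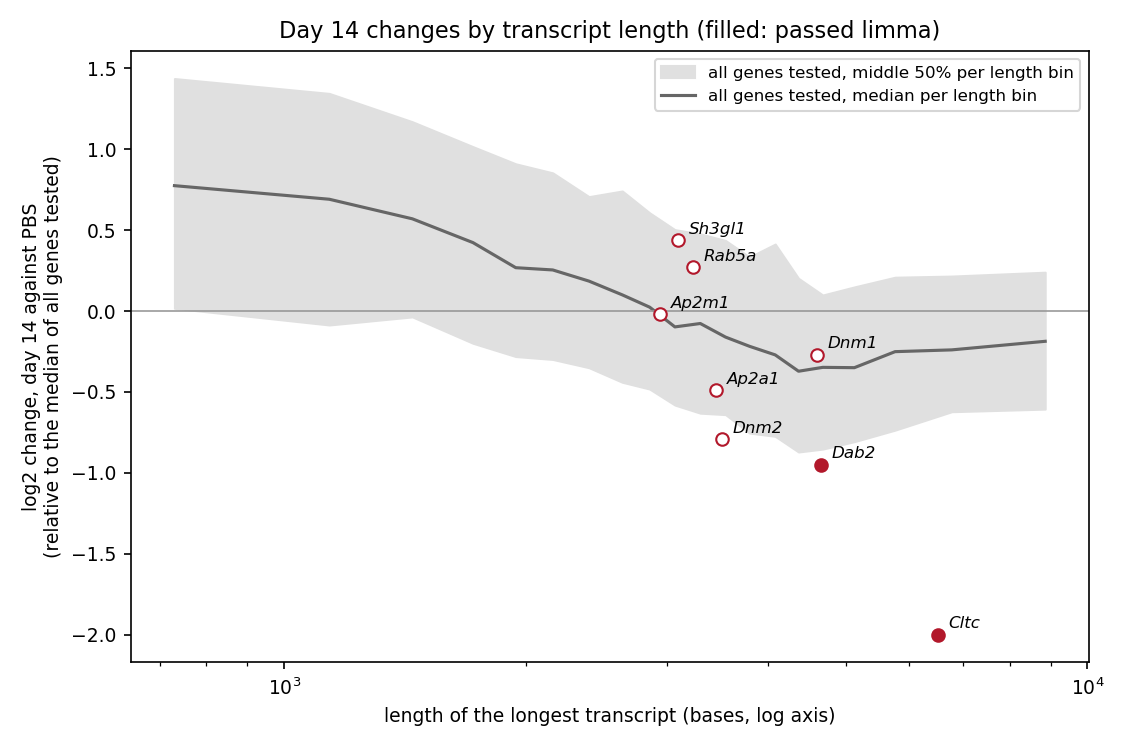
Log2 change on day 14 against PBS over the length of the longest transcript (bases, log axis), for the 8 genes and, as a line with a grey band, the median and middle 50% of all genes tested in 20 length bins. Cltc, Dab2 and Dnm2 lie below the band, and Cltc farthest from it.

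After each library was freed of its trend over transcript length and GC share, Cltc still fell on day 14 against PBS, as 1 of 8 genes, and Dab2 did not pass there (−0.78, adjusted p = 0.0519 by limma). Against day 9 both passed. The calls against PBS also rested on the PBS libraries: without PBS replicate 2, 0 of 8 genes and 0 of all genes passed (2349 genes at an unadjusted p under 0.05 by limma), and without PBS replicate 3, 0 of 8 and 150 of all. Cltc then stood at −1.90 (adjusted p = 0.07) and −1.79 (adjusted p = 0.0527), and Dab2 at −1.03 (adjusted p = 0.0882) and −0.79 (adjusted p = 0.0823, by limma). Of the 92 pathway genes, 0 passed without PBS replicate 2 and 3 without PBS replicate 3. The call of Dab2 against PBS was also lost without ADR_D14 replicate 2, and with only the groups compared (adjusted p = 0.0646 by limma). Against PBS Cltc passed in 7 of 9 fits that left out 1 library and Dab2 in 6 of 9.

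With a term for Y-linked transcripts in the fit, 0 genes passed against PBS (2514 at an unadjusted p under 0.05 by limma), with Cltc at −2.22 and Dab2 at −0.89 (adjusted p = 0.0623 and 0.0925 by limma). Every PBS library held Y-linked transcripts and most ADR libraries did not, so this term and the injection cannot be fully told apart. Against day 9 Cltc passed in 9 of 9 fits that left out 1 library and Dab2 in 7 of 9, failing without ADR_D9 replicate 1 and without ADR_D9 replicate 3 (adjusted p = 0.0572 and 0.0557 by limma). Leaving out both ADR_D14 replicate 1 and ADR_D9 replicate 3, 4 of 8 genes fell against PBS, Cltc, Dab2, Dnm2 and Ap2a1, and 26 of 92 pathway genes passed, 22 lower and 4 higher. Over all 9788 genes, 1371 fell and 794 rose in that fit, also more than with all libraries (1051 and 619).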

How the data were processed

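RNA was measured in 9 podocyte libraries, 3 in each of the groups ADR_D14, ADR_D9 and PBS. The authors deposited FPKM values, 1 column per library, and the tools listed in the submitters' processing notes are Bowtie 0.12.7 and Cufflinks, with the build mm9, and no roles are given. No source used here gives the version of Cufflinks, the annotation, the strand setting or how multiply mapped reads were shared out, so values of paralogs and overlapping genes are uncertain. Columns headed control were matched to PBS by replicate number. Column totals were 572787 to 723288 FPKM. Counts were not used here, so no counting interval can be given.

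Where a symbol stood on several rows (260 symbols, no member), its highest row by mean was used. Genes with at least 1 FPKM in 3 libraries were tested with limma 3.58.1 in R 4.3.3 (two-sided, variance trend, all 9 libraries, group as the only term) on log2(FPKM + 1), with Benjamini-Hochberg adjustment over 9788 genes. The fit was run on simulated data with independent normal noise and each gene's spread capped at the median spread. Such data lack the markers of other cells, the depth differences and the length trend of these libraries, so they do not test the calls reported. The members and lists were chosen with earlier results of these data known. Named pathway genes were up to 4 per list and comparison with the smallest p among those that passed, or up to 2 where none passed, and those printed were chosen among them. Some genes are not reported here. Lengths and GC shares are those of a symbol's longest transcript in GENCODE M21 (99.4% of genes tested), and start regions and gene names from RefSeq. As alternatives, the pseudocount, filter, scaling, variance model and threshold were changed in turn, and fits were made with a replicate block, a term for Y-linked transcripts, with a length and GC trend removed, and with libraries left out. The last 2 combined were added after seeing the data.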

Additional observations from a re-analysis of the deposited data

Results flagged for a closer look

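The change between the time points was tested directly, and 2 of the 8 genes differed: Cltc by −1.79 ± 0.36 (SE, adjusted p = 0.013 by limma) and Dab2 by −1.04 ± 0.24 (adjusted p = 0.0156 by limma), each lower on day 14 than on day 9 in 3 of 3 libraries. Groups of 3 libraries are too small for a test of single outlying libraries.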

How the results depend on the processing

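Of the 8 genes tested, Cltc, Dab2, Dnm2, Ap2a1 and Sh3gl1 kept the sign of their day 14 changes against PBS and against day 9 under every alternative tried. These changes have the median of their own fit subtracted. That takes out most of a shift shared by all genes, so scaling by a single factor per library hardly tests the signs. Sh3gl1 with a common column total was at 0.38 against PBS, while its change before subtraction had an adjusted p of 0.917 by limma. The number of these genes that passed against PBS (2) was 1 with only the groups compared, 0 with a term for Y-linked transcripts, 4 with the 2 libraries holding markers of other kidney cells left out, 1 with the length and GC trend removed, and 0 to 4 with 1 library left out. Against day 9 (2) it was 4 with a common column total, where the count over all genes was 2225 as well, 1 with only the groups compared, 1 with the length and GC trend removed together with those 2 libraries left out (Cltc −1.44, adjusted p = 0.0526 by limma), and 1 to 4 with 1 library left out. Over all genes, the 1670 that passed against PBS became 997 with no filter, 470 with only the groups compared, 0 with the term for Y-linked transcripts, 1032 with the trend removed, 2691 at an adjusted p under 0.1, and 0 to 1885 with 1 library left out. The 1536 against day 9 became 881, 262 and 795 with no filter, only the groups compared and the trend removed, 2673 at an adjusted p under 0.1, 457 with the trend removed and those libraries left out, and 381 to 2124 with 1 library left out. On day 9 against PBS the count of 0 became 2 with no filter, 1 with only the groups compared, and 0 to 1 with 1 library left out. The cause was not tested.

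Changes near 0 turned sign. On day 9 against PBS Dnm2 was at −0.22 with the term for Y-linked transcripts, −0.18 with the 2 libraries left out, −0.012 with the trend removed and −0.23 with both, and Ap2a1 at −0.065 with the trend removed and −0.037 with both. With 1 library left out, ranges were −0.18 to 0.22 for Dnm2, −0.031 to 0.20 for Ap2a1, −0.20 to 0.40 for Rab5a and −0.26 to 0.021 for Sh3gl1. On day 14 against PBS Ap2m1 was at 0.049 with a pseudocount of 0.1, 0.0021 with a filter at 5 FPKM, 0.011 after median-of-ratios scaling, 0.13 with the term, 0.21 with the 2 libraries left out and 0.26 with the trend removed too. Dnm1 was at 0.18 with those libraries left out, 0.28 with the trend removed and 0.77 with both. Ranges with 1 library left out were −0.66 to 0.18 for Dnm1, −0.26 to 0.21 for Ap2m1 and −0.031 to 0.55 for Rab5a. On day 14 against day 9 Dnm1 was at −0.11 with a pseudocount of 0.1, Ap2m1 at −0.070 with no filter and −0.34 after quantile normalization, and Rab5a at −0.011 and −0.14. Ranges with 1 library left out were −0.13 to 0.70 for Dnm1, −0.10 to 0.35 for Ap2m1 and −0.11 to 0.45 for Rab5a. None of these values passed the test.

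With the replicate number as a block, 2 of the 8 genes and 1301 of all genes passed against PBS, and 2 and 1200 against day 9, and no call of the 8 genes changed. Over the pathway genes that passed, calls were kept in 269 of 411 refits against PBS and in 191 of 297 against day 9. Deviations of same-numbered libraries correlated between −0.265 and 0.431, and not every library correlated best with its own number. The highest correlation, 0.458, was between ADR_D14 replicate 1 and ADR_D9 replicate 3, the libraries holding markers of other kidney cells. With so few libraries and such differences between them, this check cannot decide whether the numbers pair the libraries. Depth limits the low genes Dnm1, Clta and Synj1, most of all on day 14, and all counts with day 14 rest on libraries with 0.239 to 0.569 of the depth of PBS replicate 2.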

Other observations

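Clta, at 0.356 to 1.99 FPKM in the 9 libraries, and Ap2m1, at 596 to 1103 FPKM, stand far apart for genes whose products meet in the same coat. The table lists the other light chain gene, Cltb, at 15.7 to 58.7 FPKM. Ap2m1 ranked 117 of 23309 symbols by mean level, and Clta ranked 10679. Without counts or the authors' annotation, these levels could not be checked further here.

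The ratio of Ap2m1 to Cltc in FPKM was 179, 359 and 249 on day 14, 67.2, 66.6 and 34.3 on day 9, and 80.8, 43.2 and 38.8 with PBS. The ratio of Dnm2 to Cltc was 13.5, 10.6 and 6.08 on day 14, 3.60, 4.22 and 4.30 on day 9, and 4.79, 3.04 and 2.63 with PBS. For both ratios every day 14 library lay above all other libraries. Both divide by Cltc, whose day 14 libraries already lay below all others, so this separation is not a further result. A single factor per library leaves such ratios as they are, whereas quantile normalization does not, and they show unequal change, not which gene changed.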
